A study of Homo sapiens with 6 samples.

Results

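VCP and 8 partner genes of ER-associated degradation (ERAD) were followed in ACHN cells exposed to curcumol. The members were fixed by name, namely VCP, UFD1, NPLOC4, DERL1, DERL2, OS9, SELENOS, UBXN4 and FAF2, and all 9 were found by gene name among the 58735 genes of the count table. The groups were 3 libraries of ACHN cells given curcumol, a sesquiterpenoid of Curcuma oil, and 3 libraries of control ACHN cells, all of them labelled wild type and all made from poly(A) RNA. The control is labelled a vehicle control, although the design text says that it had no drug, and neither dose nor exposure time is given in the sources used here. ACHN is 1 established human renal carcinoma line, and its libraries are described as independent biological replicates. The libraries held 16962012 to 17827433 counts, and the filter on low counts kept 15160 genes for testing, all 9 members included.

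ERAD removes proteins that fail to fold in the endoplasmic reticulum. A lectin such as OS9 marks a misfolded glycoprotein, a membrane complex built on the ligase SYVN1, its partner SEL1L and the derlins moves it towards the cytosol and tags it with ubiquitin, and the hexameric ATPase VCP, also called p97, pulls the tagged protein out of the membrane for the proteasome. VCP reaches its substrates through adaptors: the UFD1 and NPLOC4 pair binds ubiquitin chains, and membrane proteins such as UBXN4, FAF2 and SELENOS hold VCP at the organelle.

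Promoter windows from RefSeq (GRCh38.p14, 250 bases before to 50 after a transcript start) were matched for 7 of the 9 members. The windows of NPLOC4 lay over 1000 bases inside the gene and were left out, and the other 6 were searched on both strands for elements of the unfolded protein, heat shock and antioxidant responses. Some of these 6 miss the outermost promoter. The start used lay 757 bases inside the outermost GENCODE 29 start for FAF2 and 633 bases inside it for DERL2. The VCP window is shown because it was the 1 member window with an unfolded protein response element (UPRE, TGACGTGG). The window of HERPUD1, an ERAD scaffold gene described further down, is set beside it because it held an ERSE-II element (ATTGG, any base, CCACG). It was added after its match was seen. Windows were matched for 55 genes of the wider ERAD list described further down. Of these 55, 1 held an ERSE-II, that of HERPUD1, and 2 held a UPRE. Capitals mark these elements, and each line runs 5′ to 3′ on the gene's strand, minus for VCP (chr9:35072576-35072875) and plus for HERPUD1 (chr16:56931892-56932191).
VCP: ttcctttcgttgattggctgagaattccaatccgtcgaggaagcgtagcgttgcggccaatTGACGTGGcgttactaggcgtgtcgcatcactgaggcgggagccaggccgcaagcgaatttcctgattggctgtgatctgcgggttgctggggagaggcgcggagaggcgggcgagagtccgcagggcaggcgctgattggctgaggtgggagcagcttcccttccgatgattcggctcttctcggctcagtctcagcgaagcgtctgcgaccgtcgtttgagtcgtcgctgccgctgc
HERPUD1: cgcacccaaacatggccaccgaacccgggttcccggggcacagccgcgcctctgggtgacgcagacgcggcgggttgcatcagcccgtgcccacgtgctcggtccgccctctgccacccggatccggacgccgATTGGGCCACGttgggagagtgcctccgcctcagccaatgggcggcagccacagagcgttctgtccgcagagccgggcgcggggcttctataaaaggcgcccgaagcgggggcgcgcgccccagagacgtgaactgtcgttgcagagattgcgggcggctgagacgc
The UPRE of VCP lay 189 to 182 bases before the RefSeq start at base 35072625, which is 624 bases inside the outermost GENCODE 29 start, and the same stretch plus 1 base also matched the antioxidant element (TGAC, any 3 bases, GC). Across 35116 RefSeq promoter windows, 0.729% held a UPRE and 13.3% the antioxidant element, which was found in 2 of the 6 member windows, those of VCP and FAF2. ERSE-II was found in 0.0541% of all windows and in 0 of the 6. The ERSE (CCAAT, any 9 bases, CCACG), the cyclic AMP element (TGACGTCA) and the heat shock element (GAA, any 2 bases, TTC, any 2 bases, GAA) were also found in 0 of the 6, against 0.0769%, 1.85% and 0.490% of all windows. A match of letters is a description of the window and not a measured binding site.

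In curcumol-treated cells the mRNA of VCP and its adaptors was higher than in control cells. Levels are CPM, counts relative to library size, scaled by TMM, a method that sets libraries on a common scale, and called genes had an adjusted p under 0.05 in edgeR's quasi-likelihood test over all genes tested. All 9 members rose under TMM scaling, whereas under scaling by library totals 8 rose and DERL2 did not pass, and with an offset for GC content 8 rose and DERL2 fell. Of all genes tested, 39.4% rose and 40.3% fell under TMM scaling, and 79.7% passed in either direction. In numbers, 5967 genes rose and 6109 fell with TMM, 4818 and 7372 with library totals, and 5749 and 6283 with the GC offset. The median log2 fold change was 0.78 over the 9 members and -0.02 over the 15160 genes. The members were chosen with earlier results of these data known, so setting them beside all genes is a description and not a test. The values of the 3 curcumol libraries lay above those of the 3 control libraries for each of the 9 on the TMM scale, as they did for 39.8% of genes tested. A rise of at least 2-fold was seen for 4 members, UFD1, DERL1, UBXN4 and FAF2, and 21.3% of genes tested rose by as much. With library totals, and likewise with the GC offset, it was seen for 2 members, UFD1 and DERL1. The share of all genes that rose by as much was counted only under TMM scaling.

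**Figure D1:**
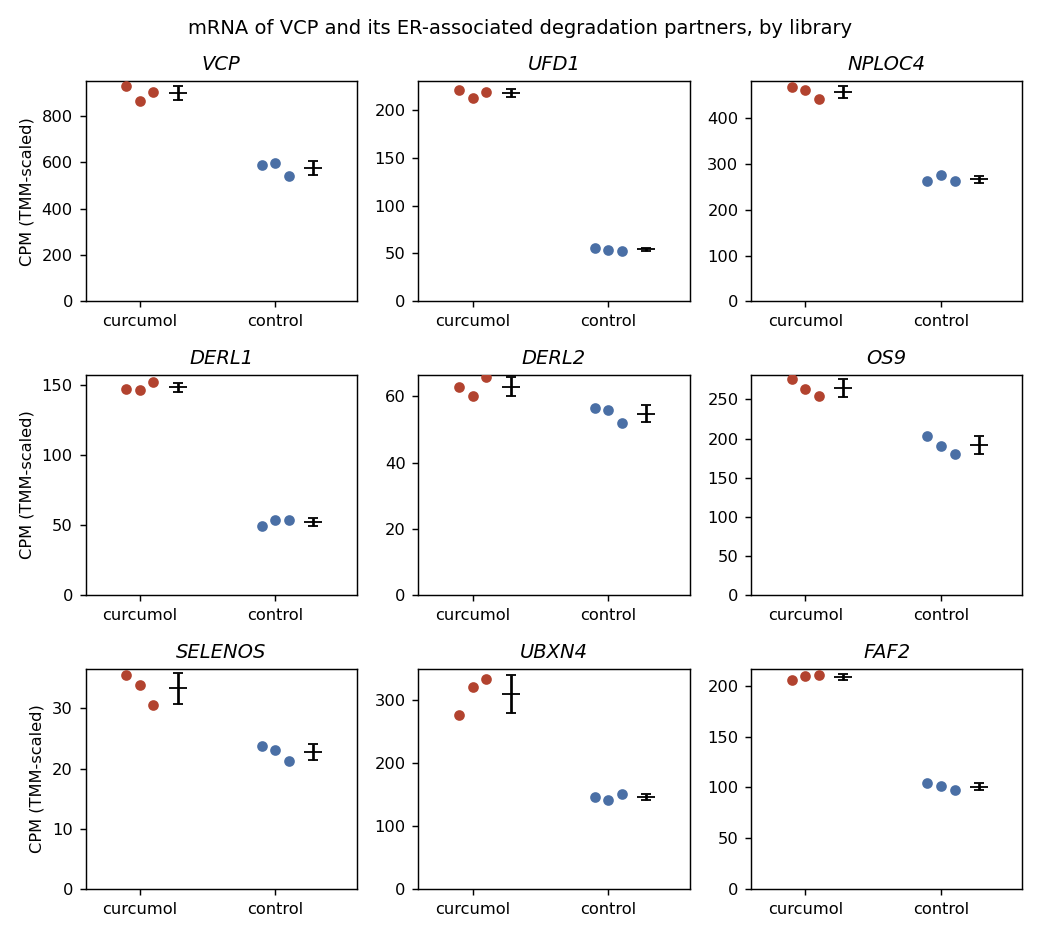
TMM-scaled CPM of each of the 9 genes, with 1 point for each library (3 curcumol, 3 control) and the mean with its SD beside the points. Each axis starts at 0, and the gap relative to control is widest for UFD1, at 217 CPM in curcumol and 54.2 CPM in control, and narrowest for DERL2, at 62.9 CPM in curcumol and 54.8 CPM in control.

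VCP itself (ENSG00000165280, chromosome 9, 35056064 to 35073249, minus strand, GRCh38) had 929, 865 and 901 CPM in the curcumol libraries, against 586, 596 and 541 CPM in the control libraries. The groups did not overlap, and the mean was 898 ± 31.9 CPM in curcumol and 574 ± 29.2 CPM in control (SD, n = 3 each). The log2 fold change was 0.65 ± 0.06 (SE; adjusted p = 7.14e-10 by edgeR), a 1.56-fold rise. It stood at 0.38 with library totals and at 0.81 with the GC offset.

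The adaptor pair rose unequally. UFD1, which binds ubiquitin chains (ENSG00000070010, chromosome 22, 19449910 to 19479215), had 220.5, 213 and 219 CPM in curcumol and 55.7, 54.1 and 52.7 CPM in control. All 3 curcumol values were close to each other and far above control, with a log2 fold change of 2.004 ± 0.06 (SE; adjusted p = 2.65e-17 by edgeR), or 4.01-fold. Among the 15160 genes tested it lay at percentile 92.2 of the log2 fold changes. NPLOC4, its partner (ENSG00000182446, chromosome 17, 81556887 to 81648465), had 469, 461 and 443 CPM in curcumol, against 262, 275 and 263 CPM in control. Its log2 fold change was 0.78 ± 0.05 (SE; adjusted p = 1.76e-11 by edgeR), or 1.72-fold, and 0.51 with library totals.

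The proportion of UFD1 to NPLOC4 counts does not depend on a scaling factor shared by all genes of a library. It was 0.470, 0.462 and 0.494 in curcumol and 0.213, 0.197 and 0.201 in control. The groups did not overlap, and the proportion was 2.34-fold higher in curcumol. The difference of the log2 ratios was 1.23 (exact two-sided permutation test, p = 0.1), where 0.1 is the smallest p that 3 against 3 libraries allow, so this test cannot pass 0.05. VCP had 4.21, 4.07 and 4.11 counts for each UFD1 count in curcumol, against 10.5, 11.0 and 10.2 in control, a difference of -1.36 on the log2 scale (exact permutation p = 0.1). Counts were not divided by gene length here, so the ratios describe counts and not molecules. They also carry no offset for GC content. That offset differs between genes, and under it the log2 fold changes were 1.90 for UFD1, 0.89 for NPLOC4 and 0.81 for VCP. For all 4 ratios computed, each with an exact permutation p of 0.1, the Benjamini-Hochberg adjusted p is also 0.1.

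**Figure D2:**
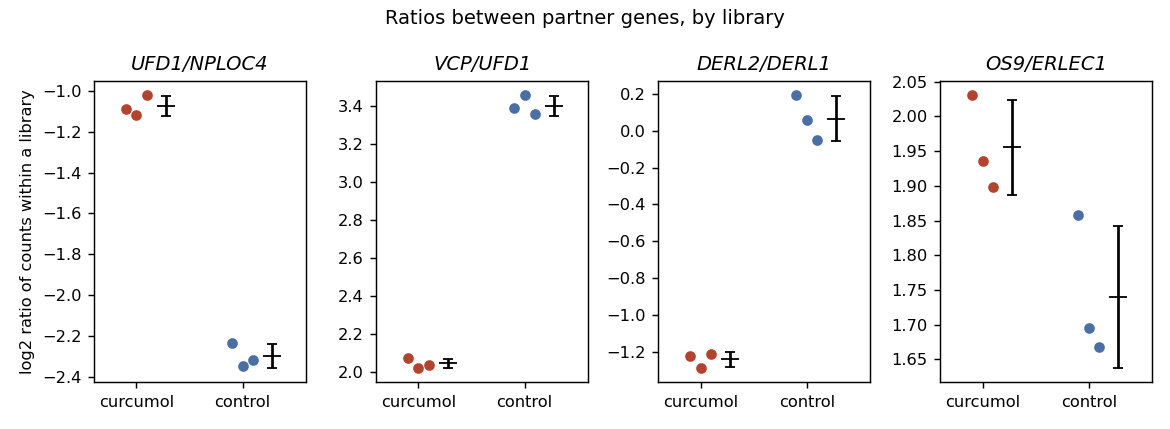
Log2 ratio of counts between partner genes within each library, with 1 point for each of the 3 curcumol and 3 control libraries and the mean with its SD; the vertical axes differ between panels and do not start at 0. UFD1 gained on NPLOC4 by 1.23, VCP lost against UFD1 by a difference of -1.36, DERL2 lost against DERL1 by -1.31, and OS9 over ERLEC1 differed by 0.22.

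Of the membrane proteins that hold VCP at the reticulum, both UBX-domain genes rose by close to 2-fold under TMM scaling. UBXN4, also known as erasin (ENSG00000144224, chromosome 2, 135741619 to 135785055), had 276, 320.5 and 333 CPM in curcumol and 147, 140.4 and 151 CPM in control. The first curcumol library was the lowest of its group and still above every control library. The log2 fold change was 1.08 ± 0.07 (SE; adjusted p = 2.39e-12 by edgeR), 1.16 without that library, 0.82 with library totals and 0.60 with the GC offset. FAF2, also called UBXD8, which also sits on lipid droplets (ENSG00000113194, chromosome 5, 176447628 to 176510074), had 205, 209.6 and 211 CPM in curcumol, against 104.5, 101 and 97.25 CPM in control. Its log2 fold change was 1.05 ± 0.06 (SE; adjusted p = 4.80e-13 by edgeR), or 0.78 with library totals and 0.89 with the GC offset, with little spread among the curcumol libraries. SELENOS, a selenoprotein that binds VCP and the derlins (ENSG00000131871, chromosome 15, 101270817 to 101277500), was the least abundant member. It had 35.5, 34.0 and 30.5 CPM in curcumol and 23.8, 23.2 and 21.2 CPM in control, and rose by 0.55 ± 0.09 (SE; adjusted p = 1.60e-05 by edgeR), or by 0.29 with library totals.

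The derlins, rhomboid-like proteins of the exit channel, differed in their response. DERL1 (ENSG00000136986, chromosome 8, 123013164 to 123042423) had 147, 147 and 152 CPM in curcumol and 49.4, 53.6 and 53.9 CPM in control. The log2 fold change was 1.51 ± 0.07 (SE; adjusted p = 7.11e-15 by edgeR), or 2.84-fold. DERL2 (ENSG00000072849, chromosome 17, 5471251 to 5486811) had 63.0, 60.0 and 65.8 CPM in curcumol, against 56.6, 55.8 and 52.0 CPM in control. Its log2 fold change was 0.20 ± 0.07 (SE; adjusted p = 0.0174 by edgeR), and its direction depended on the scaling. The counts as deposited overlapped, with 983, 956 and 1042 in curcumol and 1052, 1081 and 1007 in control. With library totals the change was -0.07 (edgeR adjusted p = 0.418), and with the GC offset it was -0.35 (edgeR adjusted p = 7.92e-05). The call was also lost without control replicate 3 (edgeR adjusted p = 0.105) and without curcumol replicate 3 (edgeR adjusted p = 0.0612).

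Whatever the scaling between libraries, DERL2 lost ground to DERL1 within each library. For each DERL1 count there were 0.428, 0.409 and 0.432 DERL2 counts in curcumol, against 1.15, 1.04 and 0.965 in control. The groups were far apart relative to their spread, with a log2 difference of -1.31 (exact permutation p = 0.1). The transcripts used for GC content were 43.1% G or C for DERL1 and 39.4% for DERL2, and under the GC offset the 2 genes stood at 1.17 and -0.35. DERL3, the remaining derlin, was too low to be tested, with 0 counts over the curcumol libraries and 11 over the control libraries. It shares 2923 of its 3796 exonic bases with SMARCB1 on the other strand. No source says whether the counter used strand, so the counts of DERL3 are uncertain.

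OS9, the lectin that hands glycoproteins with trimmed sugars to SEL1L (ENSG00000135506, chromosome 12, 57693955 to 57721557), rose least among the 8 members whose direction held under TMM scaling and library totals, while with the GC offset SELENOS (0.50) and UBXN4 (0.60) stood below it. It had 277, 263 and 254 CPM in curcumol, against 204, 191 and 181 CPM in control. The log2 fold change was 0.47 ± 0.06 (SE; adjusted p = 3.81e-07 by edgeR), 0.20 with library totals and 0.62 with the GC offset. ERLEC1, the other lectin of this step, had a log2 fold change of 0.25 ± 0.07 (SE) under TMM scaling and passed there, but stood at -0.015 with library totals (adjusted p = 0.845 by edgeR) and -0.21 with the GC offset (adjusted p = 0.00453 by edgeR). OS9 had 4.09, 3.83 and 3.73 counts for each ERLEC1 count in curcumol and 3.62, 3.24 and 3.18 in control. Without an offset for GC content these groups did not overlap but lay close (log2 difference 0.22, exact permutation p = 0.1). With the GC offset the log2 fold changes of OS9 and ERLEC1, 0.62 and -0.21, lay further apart than the 0.47 and 0.25 under TMM scaling. The closeness of the ratios therefore depends on leaving that offset out.

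**Figure D3:**
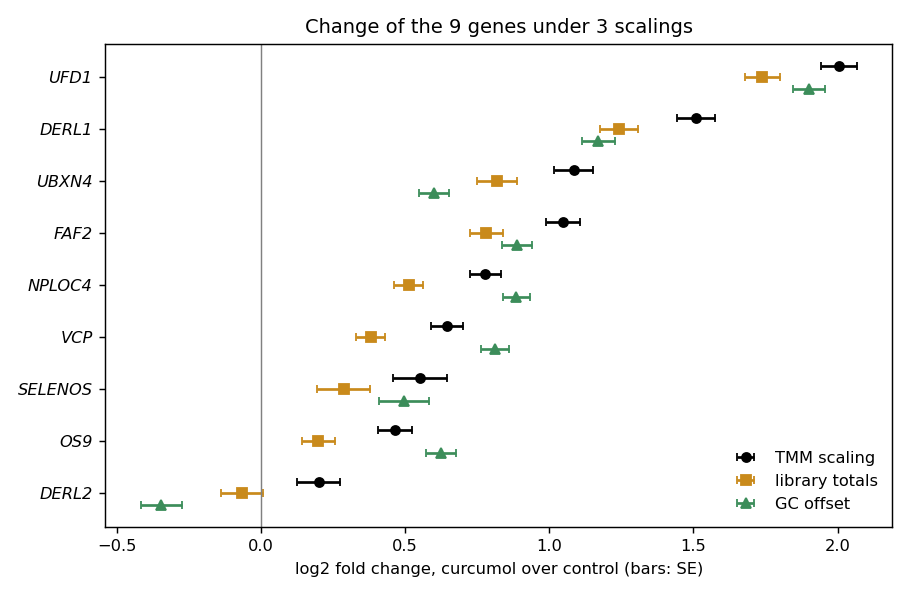
Log2 fold change of the 9 genes (curcumol over control, bars are SE) under TMM scaling, library totals and an offset for GC content. Of the 9 genes, 8 stayed above 0 under these 3 scalings, while DERL2 stood at 0.20, -0.07 and -0.35.

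Scaling by library totals shifted the median log2 fold change of all genes to -0.28, from -0.02 under TMM, and TMM factors were 0.900 to 0.919 in curcumol and 1.09 to 1.10 in control. Relative to that shifted median the members stood at 0.66 for VCP, 2.02 for UFD1, 0.79 for NPLOC4, 1.52 for DERL1, 0.22 for DERL2, 0.48 for OS9, 0.57 for SELENOS, 1.10 for UBXN4 and 1.06 for FAF2. A change of library scaling moves all genes by nearly the same amount. Relative to the TMM median, VCP therefore also stood at 0.66 and DERL2 at 0.22, so these values are not separate support. With library totals the number of genes called was 4818 upward and 7372 downward, against 5967 and 6109 with TMM.

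Levels can be compared between genes per kilobase of joined annotated exons. On that scale VCP was the most abundant member, at 165 ± 5.87 CPM per kb in curcumol and 106 ± 5.38 in control (SD, n = 3 each). In curcumol it was followed by UBXN4 at 60.6 ± 5.89, OS9 at 51.2 ± 2.19, NPLOC4 at 47.8 ± 1.38 and FAF2 at 35.0 ± 0.463 CPM per kb (SD, n = 3). UFD1 at 24.9 ± 0.475 and DERL1 at 21.0 ± 0.440 came next, above DERL2 at 9.85 ± 0.451 and SELENOS at 8.85 ± 0.679 CPM per kb, whose libraries overlapped. In control OS9 was second at 37.1 ± 2.21 CPM per kb, UBXN4 at 28.6 ± 1.03 and NPLOC4 at 27.9 ± 0.757 did not differ beyond their spread, and FAF2 stood at 16.95 ± 0.613 (SD, n = 3). DERL2 at 8.58 ± 0.386 lay above DERL1 at 7.39 ± 0.355 there, the reverse of the order in curcumol, and UFD1 at 6.20 ± 0.172 and SELENOS at 6.03 ± 0.356 CPM per kb were alike within their spread. UFD1 has 8736 joined exon bases and SELENOS 3766, which can exceed the length of the mRNA in use, so this order is approximate.

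The other genes of the pathway were written down as 6 lists of 74 genes by role, of which 71 could be tested. In all, 38 rose, 27 fell and 6 did not pass, and the median log2 fold change was 0.37. Scaled by library totals the list had 35 upward and 30 downward calls, and under the GC offset 36 and 26. Over all genes tested the calls were 4818 upward and 7372 downward with library totals, and 5749 and 6283 with the GC offset. The 38 that rose are 53.5% of those tested and the 27 that fell 38.0%, beside 39.4% and 40.3% of all genes. These lists too were written with earlier results of these data known. Errors beside log2 fold changes are SE, and genes said to have risen or fallen passed edgeR's test.

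**Figure D4:**
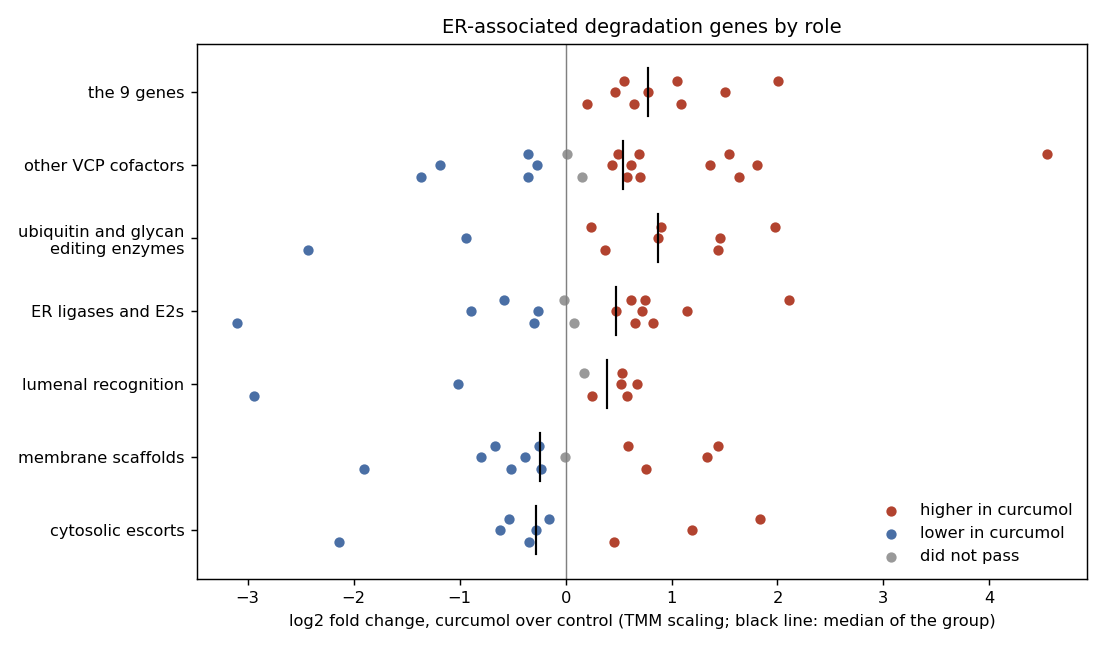
Log2 fold change (curcumol over control, TMM scaling) of the tested ERAD genes by role, 1 point for each gene, coloured by the edgeR call, with a black line at the median of each group. The median is 0.78 for the 9 genes and 0.87 for the enzymes that edit ubiquitin and glycans, and lies at -0.24 for the membrane scaffolds and -0.28 for the cytosolic escorts.

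Of 18 other cofactors of VCP, 11 rose and 5 fell (median 0.54, or 0.27 with library totals and 0.36 with the GC offset). ZFAND2A, an arsenite-inducible zinc finger protein that binds the proteasome, had 559, 568 and 629.9 CPM in curcumol and 27.7, 26.6 and 21.1 CPM in control, a log2 fold change of 4.54 ± 0.09 (SE). The ubiquitin-binding cofactor PLAA rose by 1.64 ± 0.07 and ANKZF1, which releases peptides from stalled ribosomes, by 1.54 ± 0.08. NSFL1C, the p47 adaptor that serves VCP in membrane fusion, averaged 172 ± 7.80 CPM in curcumol and 170.3 ± 5.29 CPM in control (SD, n = 3 each), and its log2 fold change of 0.02 ± 0.06 did not pass (edgeR adjusted p = 0.795). It stood at -0.25 with library totals and passed there (edgeR adjusted p = 0.000544).

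Among enzymes that trim or extend ubiquitin chains or strip glycans from VCP substrates, 7 of 9 rose and 2 fell (median 0.87), or 5 rose and 3 fell with the GC offset (median 0.17). The deubiquitinase VCPIP1 had 112, 137 and 130.1 CPM in curcumol and 31.1, 31.2 and 34.1 CPM in control, a log2 fold change of 1.98 ± 0.08 (SE). NGLY1, the glycanase for proteins that have left the reticulum, rose by 1.44 ± 0.08, or 0.74 with the GC offset. The deubiquitinase USP13 fell to 11.6 ± 1.80 CPM in curcumol, against 62.5 ± 1.01 CPM in control (SD, n = 3 each), a log2 fold change of -2.43 ± 0.10.

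Ligases of the ER membrane and their ubiquitin-conjugating enzymes were divided, with 8 of 15 higher and 5 lower (median 0.48, or 0.21 with library totals and 0.22 with the GC offset). SYVN1, the ligase at the centre of the best known ERAD complex, averaged 18.6 ± 1.26 CPM in curcumol and 17.5 ± 1.57 CPM in control (SD, n = 3 each) and did not pass (log2 fold change 0.08 ± 0.11, edgeR adjusted p = 0.481). It stood at -0.18 with library totals, where it did not pass either, and at 0.51 with the GC offset, where it did (edgeR adjusted p = 8.87e-05). The ligase RNF103 rose by 2.11 ± 0.10. The conjugating enzyme UBE2K rose by 1.14 ± 0.07, or 0.48 with the GC offset. TMEM129 fell to 2.82, 2.76 and 2.08 CPM in curcumol, against 21.7, 20.3 and 23.7 CPM in control, a log2 fold change of -3.10 ± 0.15.

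In the lumenal recognition list 5 of 8 rose and 2 fell (median 0.39, or 0.12 with library totals and 0.03 with the GC offset). SEL1L, the partner of SYVN1, had 179.5, 186 and 188 CPM in curcumol and 114, 117 and 116 CPM in control, and rose by 0.67 ± 0.06, or 0.41 with library totals and 0.13 with the GC offset. EDEM1, a mannosidase-like protein that speeds glycoprotein disposal, rose by 0.58 ± 0.06, or 0.31 with library totals and 0.37 with the GC offset. The mannosidase MAN1B1 fell by 1.02 on the log2 scale, or 0.55 with the GC offset, and the flavoprotein FOXRED2 had a log2 fold change of -2.94 ± 0.11.

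Membrane scaffolds had 4 of 12 members higher and 7 lower (median -0.24, or -0.51 with library totals and -0.12 with the GC offset). HERPUD1, the scaffold gene whose promoter is printed above, had 137, 143.0 and 149 CPM in curcumol and 54.5, 60.0 and 55.9 CPM in control, a log2 fold change of 1.33 ± 0.07 (SE, edgeR). JKAMP rose by 1.44 ± 0.07, or 0.81 with the GC offset, and ERLIN2, which acts in disposal of the inositol trisphosphate receptor, had a log2 fold change of -1.91 ± 0.08. Of 9 cytosolic escorts 3 rose and 6 fell (median -0.28, or -0.55 with library totals), and 4 rose and 4 fell with the GC offset (median -0.02). The ubiquitin shuttle UBQLN1 rose by 1.19 ± 0.05, or 0.53 with the GC offset. UBL4A and GET4, partners of BAG6 in shielding membrane proteins, moved apart, with UBL4A at -2.14 ± 0.11 and GET4 at 1.84 ± 0.12, but GET4 shares 1842 exonic bases with SUN1 on its own strand.

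The profile of VCP over the 6 libraries was most closely matched by RBM6, POLR3C and CRKL among 10431 genes with a mean of at least 100 counts. The root mean square difference of the centred log2 CPM was 0.0171, 0.0213 and 0.0249. RBM6 had 86.8, 82.8 and 86.4 CPM in curcumol and 56.9, 57.3 and 51.8 CPM in control. In these 3 genes, as in VCP, the difference between the groups sets most of the profile, so the likeness says little beyond a similar fold change.

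Some reads may belong to neighbours, because no source says whether the counter used strand. DERL2 shares 301 exonic bases with MIS12 and DERL1 shares 396 with TBC1D31, both on the other strand. MIS12 had 850, 911 and 857 counts in curcumol and 628, 678 and 691 in control, and TBC1D31 had 1244 counts over the curcumol libraries and 1314 over the control libraries. UFD1 shares 196 exonic bases with the antisense gene AC000068.1, which had 64, 42 and 36 counts in curcumol and 9, 6 and 8 in control. NPLOC4 shares 36 exonic bases with TSPAN10, which had 3 to 10 counts in the curcumol libraries and 20 to 21 in the control libraries, and OS9 shares 699 with an antisense gene that had 0 counts in every library. The members VCP, SELENOS, UBXN4 and FAF2 share no exonic base with another annotated gene. In the wider list SYVN1 shares 398 exonic bases with FAU, RNF103 508 with RNF103-CHMP3 and NSFL1C 492 with SIRPB2 on the same strand, and NGLY1 shares 536 with OXSM, JKAMP 386 with CCDC175 and PLAA 272 with IFT74 on the other strand. Antisense genes on the other strand share 2592 exonic bases with GET4, 1371 with RNF103 and 653 with EDEM1, and SYVN1 shares 356 there with MRPL49, so their values are uncertain to that extent.

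Markers of the labelled cell type and of other cells were summed in each library. The 5 renal epithelial markers summed to 110.2 to 121 CPM in curcumol and 358.5 to 369.5 CPM in control, with PAX8 at 60.1 CPM in curcumol and 192 CPM in control. The 4 general epithelial markers summed to 1812 to 2090 CPM in curcumol and 2579 to 2772 CPM in control, with EPCAM at 51.6 CPM in curcumol and 47.1 CPM in control. The 4 clear cell markers summed to 93.9 to 111 CPM in curcumol and 39.1 to 45.8 CPM in control. Most of that sum was ANGPTL4, which averaged 97.5 CPM in curcumol and 41.4 CPM in control. CA9 had 0 to 3 counts in any library. NDUFA4L2 averaged 1.82 CPM in curcumol and 1.79 CPM in control, and EGLN3 1.35 and 0.104 CPM. The 3 blood cell markers summed to 0.512 to 0.884 CPM in curcumol and 0 to 0.155 CPM in control, with CD3E at 0 throughout, and the 3 endothelial markers to 0.128 to 0.568 CPM in curcumol and 0.0516 to 0.155 CPM in control. The 3 fibroblast markers summed to 5.83 to 12.6 CPM in curcumol and 7.07 to 8.29 CPM in control, and these ranges overlapped. The sum joins unlike changes. COL1A1 averaged 2.25 CPM in curcumol and 4.98 CPM in control, PDGFRB 5.90 and 2.48 CPM, and DCN 0.230 and 0.0516 CPM. The part of these cell types in the changes above was not tested, and fewer cells of a kind and less RNA per cell cannot be told apart in bulk RNA.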

How the data were processed

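Poly(A) RNA of ACHN cells was sequenced in pairs, per the labels' protocols. The authors deposited a table of raw counts for Ensembl genes, 1 column a library. GRCh38 (hg38) is the build in the submitters' processing notes. What aligned and counted the reads, and whether strand was used, is not given in the sources used here. All 58735 identifiers were found in GENCODE 29, the source of coordinates, shared exonic bases, exon lengths and GC content (of each gene's longest transcript). MARCHF6, stored as a date in the table, was matched by its identifier.

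After filterByExpr 15160 genes remained. They were scaled by TMM and tested by robust quasi-likelihood F tests (edgeR 4.0.16, R 4.3.3), and p-values were adjusted over all of them by the Benjamini-Hochberg method. SE was taken from the fold change and the root of its F statistic. The code was tested on simulated counts. Members and lists were chosen with earlier results of these data known. Named genes were the 9 members, 6 fixed ERAD genes (SEL1L, SYVN1, HERPUD1, NSFL1C, EDEM1 and 1 that is not reported here), the 3 smallest p of each other list among genes with a mean of at least 100 counts, and the 3 profiles nearest to VCP (log2 CPM, prior count 2). ERLEC1 and DERL3 were named for the comparisons they enter. Ratios used a pseudocount of 0.5 counts.

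Between libraries of 1 group the chi-square statistic was 3.58 to 8.58 times its degrees of freedom, more than sampling gives, so each library counted once. Same-numbered libraries showed no clear shared deviation, with correlations of 0.0238, -0.0123 and 0.0751. This cannot exclude a pairing, which the labels do not state, so the numbers entered only as an alternative block. With 3 libraries a group, the number of libraries limits the precision more than depth for well-counted genes. Alternatives were DESeq2 1.42.0, limma-voom (limma 3.58.1), size factors of the DESeq2 type, library totals, TMM without the 50 most abundant genes, 2 other filters, a block for the replicate number, testing against 1.2-fold, offsets for GC content and exon length (splines of 5 degrees of freedom), and each library left out.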

Additional observations from a re-analysis of the deposited data

How the results depend on the processing

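Of the 9 members, 8 kept their direction and their call under all 17 alternatives, and the count of members that rose was 8 or 9 throughout. DERL2 was the exception, at -0.065 with library totals and -0.35 with the GC offset, under which 1 member fell. It kept its direction but lost its call with no filter (log2 fold change 0.15), in the test against 1.2-fold, and without control replicate 3 (0.15) or curcumol replicate 3 (0.17). In the wider ERAD list 16 lower genes passed the test against 1.2-fold, where 27 passed the ordinary test. For higher genes of that list the numbers were 36 and 38. Over all genes, 5425 lower and 5245 higher genes passed the test against 1.2-fold, where 6109 and 5967 passed the ordinary test. SYVN1 changed sign to -0.18 with library totals. NSFL1C, at 0.02 and not called, changed sign to -0.25 with library totals, -0.081 with the GC offset, -0.033 with no filter, and -0.00084, -0.00039 and -0.019 without control replicate 1, control replicate 2 and curcumol replicate 1, and was 0.045 at most with a library left out. The cause of these shifts was not tested. With the replicate number as a block 9 members rose, and in the wider list 38 rose and 27 fell, and it changed no call of a named gene. ERLEC1 changed sign to -0.015 with library totals and -0.21 with the GC offset. With a library left out, the log2 ratio differences ran from 1.198 to 1.26 for UFD1/NPLOC4, -1.38 to -1.33 for VCP/UFD1, -1.37 to -1.24 for DERL2/DERL1 and 0.18 to 0.27 for OS9/ERLEC1. These ratios carry no offset for GC content. Under that offset the log2 fold changes were 0.62 for OS9 and -0.21 for ERLEC1. Counts near 0, as for DERL3, carry counting error that limits any comparison.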
